A study of Mus musculus with 4 samples.

Results

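Peroxisomes are small organelles that shorten very long, branched and other fatty acids that mitochondria handle poorly, and they make the first intermediates of ether lipids. Their proteins are made in the cytosol and imported by a set of peroxins (the Pex genes), so that the enzymes inside depend on the peroxins in the membrane. In skin, lipid-secreting sebaceous cells and epidermal keratinocytes are known to use peroxisomes. The genes described here are 33 peroxisomal genes out of 18194 genes that the arrays measured with a probe set of 1 gene. They were listed by function as 12 import and biogenesis factors, 13 enzymes of beta- and alpha-oxidation, and 8 further genes for transport, carnitine and thioester chemistry, ether lipid synthesis and peroxide breakdown. The probe set that stands for each gene was chosen by a measured value, the highest mean over all 4 arrays. This mean includes the K5-IKKbeta arrays, so the choice can favour a probe set that is high in them, as for Acox3 below. By symbol 32 genes matched the array's annotation, and the other, listed as Peci, matched under its current symbol Eci2. All 33 lay above the filter on dim probe sets and were tested.

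The skin came from male C57BL6 X DBA2 mice aged 32 days. One group was wild type, labelled as control. The other was K5-IKKbeta transgenic, with IKKbeta, the kinase that activates the transcription factor NF-kB, driven by keratin K5 regulatory elements that act in basal cells of stratified epithelia. Each group had 2 arrays, and each array held RNA of whole back skin pooled from 3 mice, so n = 2 pools per group throughout. The founder line is not given in the sources used here. Values are log2 RMA expression values, differences are K5-IKKbeta minus wild type on the log2 scale with limma's standard error (SE), and adjusted p-values are those of limma, adjusted by Benjamini-Hochberg over 13074 genes. A gene "rose" or "fell" if its adjusted p was under 0.05. The 95% intervals are those of single genes and are not adjusted.

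The arrays had medians of 6.91 to 6.96. Of 5 probe sets of Ikbkb, the gene of the transgene, 3 passed limma's threshold over all probe sets and were higher in K5-IKKbeta skin, by 0.47 to 2.24, and 2 did not pass it. Where these probe sets lie relative to the transgene's sequence was not analysed here. Markers of epidermis (Krt10, Dsp and Lor the brightest) and dermis (Col3a1, Col1a2 and Col1a1) were present on the arrays, none of them below the 25th percentile on all 4 arrays. All 21 tested hair shaft markers fell, with a median of -6.16. Of the 22 with a probe set, Krtap13 lay below the filter on dim probe sets (6.33). Krtap6-5, Krtap14, Krtap15, Krtap16-3, Krtap19-1, Krtap19-2 and Krtap19-5 passed that filter only through their wild type values. Their K5-IKKbeta values were 3.31 to 5.80, where the 25th percentiles of these arrays were 5.35 and 5.27. The count of 21 thus depends in part on the filter. Since each array is whole skin, fewer cells of a type and less RNA per cell cannot be told apart.

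Most of the peroxisomal genes had higher values in the transgenic pools. Of the 33 genes 21 rose and 1 fell (limma adjusted p under 0.05), while 11 did not pass. Over all tested genes 33.9% passed, 23.4% higher and 10.6% lower (3056 and 1380 genes). Without wild type 1 these were 1570 and 809 genes, and without wild type 2 they were 1584 and 669. Of the genes that passed 68.9% were higher, 59.2% after another quantile normalization of all probe sets and 57.9% after one without hair genes. The median difference was 0.69 for the 33 genes and 0.09 for all tested genes. In 24 of the 33 genes both K5-IKKbeta arrays lay above both wild type arrays, which was so for 45.2% of all tested genes, and in 5 both lay below, which was so for 24.3%. The genes were listed with earlier results of these data known, so these counts describe them and test nothing. Without wild type 1 or without wild type 2, 16 genes still passed as higher.

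Acaa1a and Acaa1b encode peroxisomal thiolases, which cut the shortened chain at the last step of beta-oxidation. The stretch of 250 bases before the annotated start of both genes is printed here, with those of Acox3 and Acox2, which had the next largest rises after Acaa1b, and Crot, the gene that fell. Sequences are from RefSeq promoters of GRCm38.p6, in the direction of the gene. Capitals mark the motif CCAAT on either strand and, in Acox2, a match to the NF-kB consensus.

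Acaa1b, chr9:119157094-119157343, minus strand: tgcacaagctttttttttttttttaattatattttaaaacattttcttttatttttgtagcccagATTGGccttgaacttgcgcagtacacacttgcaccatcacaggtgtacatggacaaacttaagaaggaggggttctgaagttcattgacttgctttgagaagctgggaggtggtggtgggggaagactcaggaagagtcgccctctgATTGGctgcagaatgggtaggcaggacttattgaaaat
Acaa1a, chr9:119341044-119341293, plus strand: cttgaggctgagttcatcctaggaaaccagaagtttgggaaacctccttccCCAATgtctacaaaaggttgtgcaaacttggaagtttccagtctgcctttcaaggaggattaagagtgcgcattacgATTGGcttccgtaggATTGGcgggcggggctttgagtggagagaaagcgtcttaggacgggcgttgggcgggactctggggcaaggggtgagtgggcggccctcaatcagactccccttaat
Acox3, chr5:35582784-35583033, plus strand: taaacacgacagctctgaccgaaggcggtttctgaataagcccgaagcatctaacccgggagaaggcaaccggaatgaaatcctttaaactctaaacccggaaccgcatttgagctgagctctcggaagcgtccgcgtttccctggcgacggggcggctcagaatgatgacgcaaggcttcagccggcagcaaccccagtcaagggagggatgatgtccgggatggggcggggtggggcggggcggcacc
Acox2, chr14:8259020-8259269, minus strand: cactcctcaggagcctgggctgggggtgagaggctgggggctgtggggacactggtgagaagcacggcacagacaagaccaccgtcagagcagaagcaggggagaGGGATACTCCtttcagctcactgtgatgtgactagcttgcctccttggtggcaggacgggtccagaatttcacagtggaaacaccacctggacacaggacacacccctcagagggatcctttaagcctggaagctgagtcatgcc
Crot, chr5:8997147-8997396, minus strand: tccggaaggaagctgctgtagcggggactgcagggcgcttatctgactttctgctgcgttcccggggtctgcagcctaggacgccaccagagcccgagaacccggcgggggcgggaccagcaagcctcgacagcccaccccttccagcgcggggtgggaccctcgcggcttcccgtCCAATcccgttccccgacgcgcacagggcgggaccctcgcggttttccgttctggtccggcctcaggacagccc

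Aligned end to end, the stretches of Acaa1b and Acaa1a were identical at 48.2% of aligned columns, gaps included, against 42.1% for Acaa1b and the unrelated gene Acox3. The CCAAT motif nearest the start lay 38 to 34 bases before it in Acaa1b and 107 to 103 bases before it in Acaa1a. The match to the NF-kB consensus in Acox2 lay 145 to 136 bases before the start, and the printed stretch of Acox3 held a match to neither motif.

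Promoter windows of 300 bases were held for 27 of the 33 genes, 32 windows in all because some genes have several starts, and were searched on both strands. The motif DR1, AGGNCA and again AGGNCA in the same direction after a gap of 1 base, is of the kind that PPAR receptors bind, and it was in 0 of the 32 windows and in 0.38% of all 32851. The unit AGGTCA, which can be part of DR1, was in 3 windows, those of Cat, Phyh and Scp2, and in 16.26% of all. The NF-kB consensus was in 6 windows, those of Abcd3, Acox2, Cat, Decr2, Gnpat and Pex13, and in 8.46% of all. CCAAT was in 14 windows and in 37.41% of all. A match describes letters in this window and shows no binding. DR1 is so rare over all windows that 0 of 32 does not show that these genes lack it. Sequence outside the windows was not searched.

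Among the 12 import and biogenesis factors, 7 rose and 0 fell by limma (1 lower at an unadjusted p under 0.05), with a median of 0.55. Pex3, Pex16 and Pex19 place proteins into the peroxisomal membrane, and all of them rose. Pex16 measured 9.26 and 9.25 in wild type and 10.38 and 10.38 in K5-IKKbeta skin, a difference of 1.13 (SE 0.09, limma adjusted p = 0.00046). Pex3 went from 9.13 and 9.31 to 10.22 and 10.24, a difference of 1.01 (SE 0.10, limma adjusted p = 0.00106). Pex19, the carrier that brings membrane proteins from the cytosol, went from 9.41 and 9.46 to 10.28 and 10.32, a difference of 0.86 (SE 0.09, limma adjusted p = 0.00121). In each of these genes the pools of a genotype lay close together and the genotypes did not overlap.

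Pex11a, which elongates peroxisomes before they divide, rose to a similar degree. It measured 8.86 and 9.03 in wild type and 10.06 and 10.07 in K5-IKKbeta skin, 2.18-fold higher (1.12, SE 0.10, limma adjusted p = 0.00071). The docking proteins Pex13 and Pex14, where loaded import receptors meet the membrane, rose less. Pex13 went from 9.59 and 9.52 to 10.35 and 10.20 (0.72, SE 0.10, limma adjusted p = 0.00345). Pex14 went from 8.99 and 9.10 to 9.59 and 9.50 (0.50, SE 0.10, limma adjusted p = 0.0114). The call of Pex14 was lost without wild type 1 (0.45, limma adjusted p = 0.0962) and without wild type 2 (0.56, limma adjusted p = 0.057).

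The cargo receptors differed in outcome. Pex5, which binds the C-terminal signal of most matrix enzymes, measured 8.30 and 8.21 in wild type and 8.90 and 8.82 in K5-IKKbeta skin (0.61, SE 0.10, limma adjusted p = 0.00552). It no longer passed without wild type 2 (0.56, limma adjusted p = 0.0568). Pex7, which binds the N-terminal signal of thiolase, Phyh and Agps, measured 9.57 and 9.77 in wild type and 9.42 and 9.48 in K5-IKKbeta skin. Both transgenic pools of Pex7 lay below both wild type pools, but the difference of -0.22 did not pass (95% interval -0.49 to 0.05, limma adjusted p = 0.175). The difference between the receptors' responses was not tested.

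None of the 4 factors that return receptors from the membrane to the cytosol passed with its brightest probe set. Pex2 and Pex10, parts of the ubiquitin ligase that tags the receptor, had differences of 0.03 (95% interval -0.21 to 0.27) and 0.14 (-0.14 to 0.42). Pex6, an ATPase that pulls the receptor out, had 0.06 (-0.21 to 0.33). The sign for Pex2 and Pex6 turned after another quantile normalization (-0.04 and -0.02). The probe set of Pex6 is of shared sequence, and with such probe sets left out Pex6 rose by 0.37 (limma adjusted p = 0.0288). Pex26, the membrane anchor of Pex6, measured 8.95 and 8.76 in wild type and 8.61 and 8.44 in K5-IKKbeta skin, a difference of -0.33 that did not pass (95% interval -0.62 to -0.05, limma adjusted p = 0.076). It passed as lower without K5-IKKbeta 1 (-0.42, limma adjusted p = 0.0417), with the replicate number as a block (limma adjusted p = 0.0396) and after another quantile normalization without hair genes (-0.44, limma adjusted p = 0.0482). Without wild type 1 the difference for Pex26 was -0.24 (limma adjusted p = 0.36), and without K5-IKKbeta 2 it was -0.25 (limma adjusted p = 0.196).

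**Figure D1:**
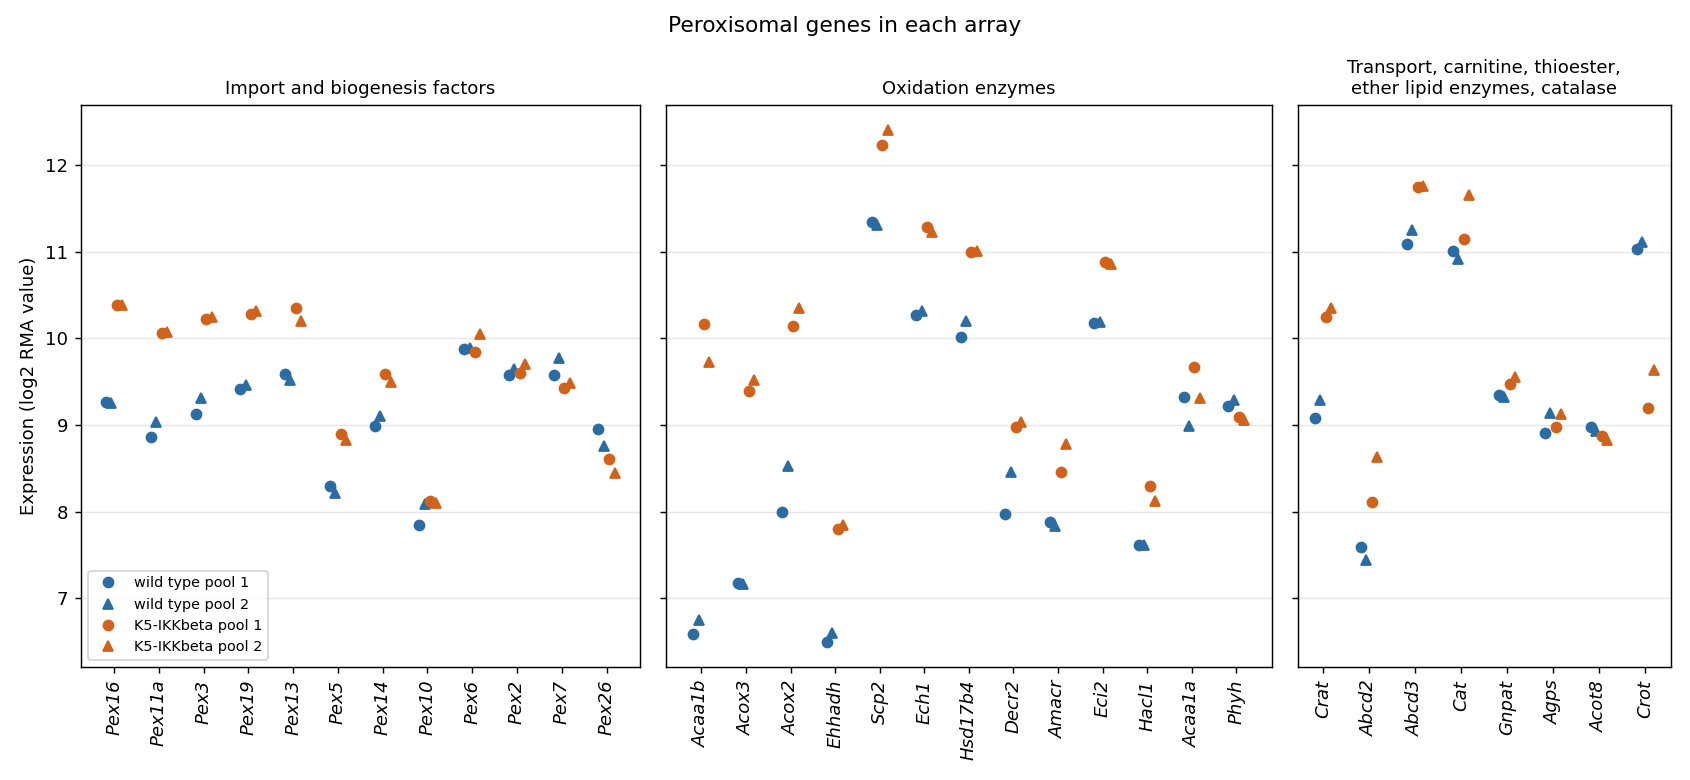
Log2 RMA expression value (vertical axis) of each of the 33 genes on each of the 4 arrays, 1 point per array, in 3 panels by role and ordered by fitted difference within a panel. Blue points are wild type and orange points K5-IKKbeta pools, with circles for pool 1 and triangles for pool 2. Acaa1b and Acox3 show the widest gaps among the oxidation enzymes, and for Crot the orange points lie below the blue ones.

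Of the 13 oxidation enzymes 11 rose and 0 fell by limma (0 lower at an unadjusted p under 0.05 as well), with a median of 0.89. The acyl-CoA oxidases, which start each round of chain shortening, were among the strongest. Acox3, an oxidase of branched chains, measured 7.17 and 7.16 in wild type and 9.39 and 9.52 in K5-IKKbeta skin, 4.91-fold higher (2.30, SE 0.10, limma adjusted p = 5.7e-05). Acox2, an oxidase of branched chains and bile acid intermediates, measured 7.99 and 8.53 in wild type and 10.14 and 10.35 in K5-IKKbeta skin, 3.96-fold higher (1.99, SE 0.19, limma adjusted p = 0.00084). The wild type pools of Acox2 lay further apart than those of Acox3, and in both genes the genotypes were well separated. The other probe set of Acox3, the brighter one in wild type, rose by 0.55 (limma adjusted p = 0.0153 over all probe sets).

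The next steps are carried out by bifunctional enzymes. Ehhadh measured 6.50 and 6.60 in wild type and 7.80 and 7.84 in K5-IKKbeta skin, 2.41-fold higher (1.27, SE 0.10, limma adjusted p = 0.00037). Hsd17b4, the bifunctional enzyme that also serves branched chains, went from 10.02 and 10.20 to 10.99 and 11.01 (0.89, SE 0.11, limma adjusted p = 0.00171). Both genes rose without overlap of the pools.

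At the thiolase step the genes came apart. Acaa1b measured 6.59 and 6.75 in wild type and 10.17 and 9.73 in K5-IKKbeta skin, 9.73-fold higher (3.28, SE 0.16, limma adjusted p = 8.6e-05), the widest difference of the 33 genes. Acaa1a measured 9.32 and 8.99 in wild type and 9.67 and 9.31 in K5-IKKbeta skin, with overlapping pools and a difference of 0.33 that did not pass (95% interval -0.08 to 0.74, limma adjusted p = 0.181). A dimmer probe set of Acaa1a rose by 0.84 (limma adjusted p = 0.00363 over all probe sets), and both probe sets annotated to the pair together rose by 1.28. Acaa1a also passed with the mean of its probe sets (0.59, limma adjusted p = 0.00813), with the replicate number as a block (adjusted p = 0.04) and without K5-IKKbeta 2 (0.51, adjusted p = 0.0357). Without K5-IKKbeta 1 the difference for Acaa1a was 0.15 (limma adjusted p = 0.499), and without wild type 2 it was 0.17 (limma adjusted p = 0.607). Both probe sets of Acaa1a carry the ending that marks probes able to bind other transcripts, so the value of this gene is uncertain, and the difference between the paralogs was not tested. Scp2, whose longer product is the thiolase of branched chains, went from 11.34 and 11.31 to 12.23 and 12.40 (0.99, SE 0.10, limma adjusted p = 0.0011).

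Enzymes that prepare unsaturated and branched chains for oxidation rose as well. Ech1, a dienoyl-CoA isomerase shared with mitochondria, went from 10.27 and 10.32 to 11.28 and 11.23 (0.96, SE 0.09, limma adjusted p = 0.00086). Eci2 (listed as Peci), an enoyl-CoA isomerase, went from 10.18 and 10.19 to 10.88 and 10.86 (0.69, SE 0.09, limma adjusted p = 0.00262). Pools of a genotype were nearly equal in both. Decr2, a dienoyl-CoA reductase, went from 7.97 and 8.46 to 8.98 and 9.03 (0.79, SE 0.17, limma adjusted p = 0.0149), and Amacr, which turns branched chains into the form that can be oxidized, from 7.88 and 7.83 to 8.46 and 8.78 (0.77, SE 0.13, limma adjusted p = 0.00658). The call of Decr2 was lost without wild type 1 (0.55, limma adjusted p = 0.0561), and that of Amacr without wild type 2 (0.74, limma adjusted p = 0.0536).

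Alpha-oxidation, which removes a single carbon from phytanic acid, was divided. Hacl1, the lyase of this pathway, went from 7.61 and 7.61 to 8.29 and 8.12 (0.60, SE 0.10, limma adjusted p = 0.00703). Its call was lost without wild type 1 (limma adjusted p = 0.0563) and without wild type 2 (limma adjusted p = 0.0573), although the difference stayed at 0.60 in both. Phyh, the hydroxylase before it, measured 9.22 and 9.29 in wild type and 9.09 and 9.06 in K5-IKKbeta skin, a difference of -0.18 that did not pass (95% interval -0.41 to 0.05, limma adjusted p = 0.194).

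The 8 remaining genes showed both directions. Crot transfers shortened acyl chains to carnitine for export to mitochondria, and it was the 1 gene of the 33 that fell. It measured 11.03 and 11.11 in wild type and 9.20 and 9.63 in K5-IKKbeta skin, 3.15-fold lower (-1.66, SE 0.16, limma adjusted p = 0.00079). Crat, the acetyltransferase of the same family, moved the other way, from 9.08 and 9.29 to 10.25 and 10.35 (1.12, SE 0.11, limma adjusted p = 0.00096). The pools did not overlap for either gene.

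The transporters that bring acyl-CoA into the peroxisome rose. Abcd2, a carrier of very long and polyunsaturated chains, went from 7.59 and 7.44 to 8.11 and 8.63 (0.86, SE 0.18, limma adjusted p = 0.0142), with K5-IKKbeta pools further apart than the wild type ones. Abcd3, a carrier of branched and long chains, went from 11.09 and 11.25 to 11.74 and 11.76 (0.58, SE 0.10, limma adjusted p = 0.00764). Abcd2 lost its call without wild type 1 (0.93, limma adjusted p = 0.0589) and without wild type 2 (0.79, limma adjusted p = 0.0894). Abcd3 lost its call without wild type 1 (0.50, limma adjusted p = 0.0698) and with the mean of its probe sets (0.25, limma adjusted p = 0.179).

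Catalase, which breaks down the hydrogen peroxide that the oxidases make, measured 11.01 and 10.92 in wild type and 11.14 and 11.65 in K5-IKKbeta skin. The difference of 0.43 for Cat did not pass (95% interval 0.01 to 0.86, limma adjusted p = 0.11). Its other probe set went from 10.23 and 10.24 to 10.88 and 11.17 and passed (0.79, limma adjusted p = 0.00989 over all probe sets). Cat passed with the mean of both probe sets (0.61, limma adjusted p = 0.0211) and without K5-IKKbeta 1 (0.69, limma adjusted p = 0.0033), and without K5-IKKbeta 2 its difference was 0.18 (limma adjusted p = 0.306). The ether lipid enzymes Agps and Gnpat had differences of 0.02 (95% interval -0.28 to 0.32) and 0.18 (-0.05 to 0.41), and the sign for Agps turned under each of the other scalings tried (-0.02 to -0.08). Acot8, a thioesterase that releases free fatty acids, had -0.10 (95% interval -0.33 to 0.13).

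**Figure D2:**
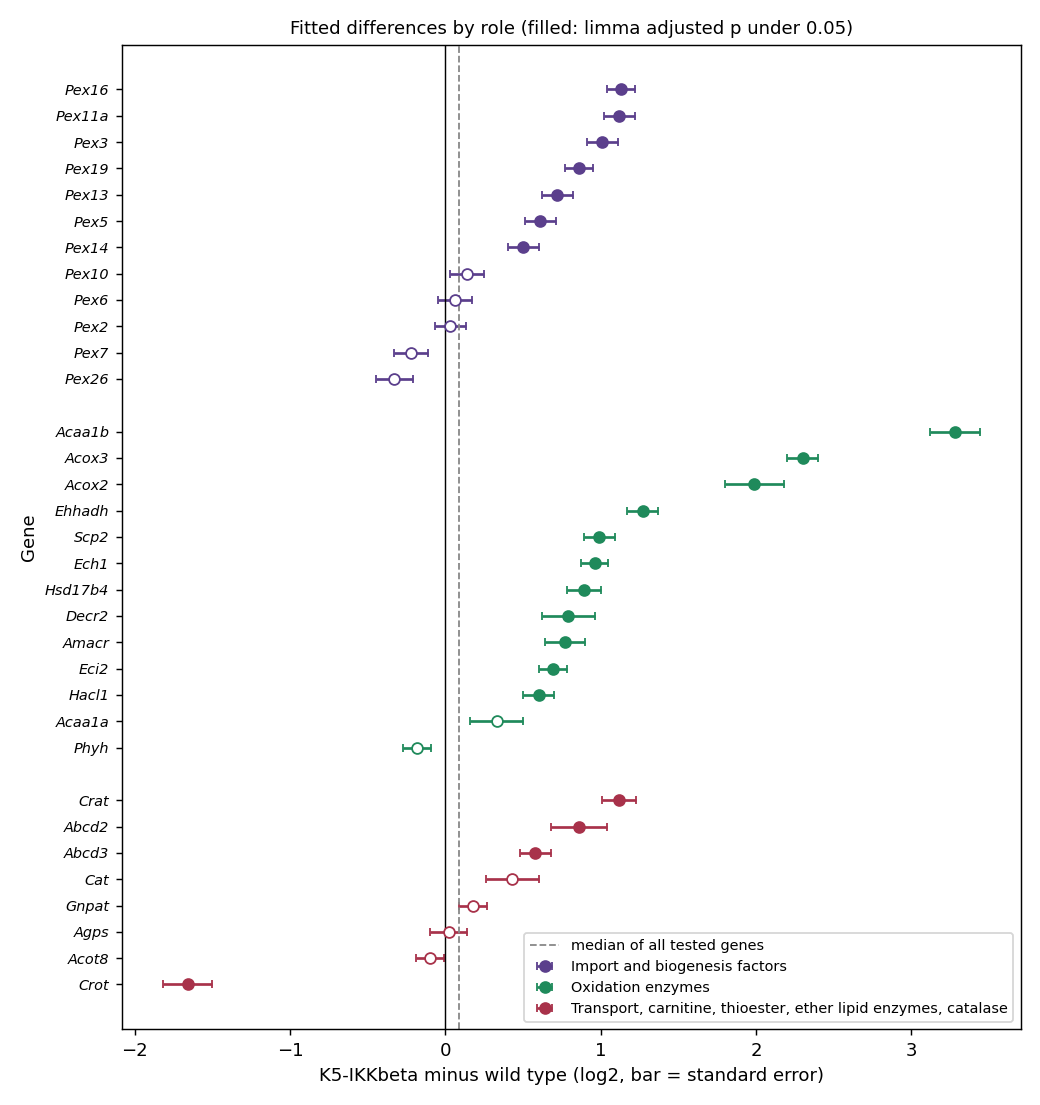
Fitted difference K5-IKKbeta minus wild type (horizontal axis, log2) of each of the 33 genes, with limma's standard error as the bar, grouped by role. Filled points passed an adjusted p under 0.05, and the dashed line is the median of all tested genes (0.09). Of the filled points 21 lie to the right of zero and 1, Crot at -1.66, to the left.

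The biogenesis factors and the oxidation enzymes were compared as groups by their medians, 0.55 against 0.89, a difference of -0.33 that has no test. Both groups spanned wide and overlapping ranges, from -0.33 (Pex26) to 1.13 (Pex16) for the factors and from -0.18 (Phyh) to 3.28 (Acaa1b) for the enzymes. The difference of medians ran from -0.42 to -0.25 when 1 array was left out. Relative to each gene's own mean over the arrays, the median of the factors was -0.28 and -0.27 in the wild type pools and 0.32 and 0.23 in the K5-IKKbeta pools. For the enzymes these values were -0.51 and -0.41 against 0.41 and 0.46. Pools of a genotype were thus closer to each other than to the other genotype in both groups.

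Further probe sets of the same genes gave readings that the choice of the brightest one had left aside. The 21 genes that rose included 12 with further probe sets, 18 in all, with a median of 0.62. Of these 17 had a positive difference, 16 showed no overlap of the genotypes and 11 passed limma's threshold over all probe sets. The genes that did not pass had 9 further probe sets, of which 6 were positive, 4 had both K5-IKKbeta arrays above both wild type arrays and 2 passed. These counts come from the same arrays as the brightest probe sets and are no separate test. The share over all probe sets was not computed. Sizes differed most for Acox3, where the other probe set went from 7.68 and 7.70 to 8.24 and 8.25 (0.55 in place of 2.30). In wild type that probe set was brighter than the chosen one (7.17 and 7.16), so the K5-IKKbeta values decided the choice for Acox3. The other probe set of Pex16 gave 0.24 (limma adjusted p = 0.228 over all probe sets) in place of 1.13, and that of Pex3 gave 1.26 in place of 1.01. For Crot the further probe set, with a mean of 6.14 against 10.24 for the brightest, gave -0.31 and did not pass (limma adjusted p = 0.196 over all probe sets). Among the further probe sets of genes that rose, the exception in sign was a probe set of Abcd3 with a mean of 4.64, at -0.07. Which probe set reads which transcript form was not tested.

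**Figure D3:**
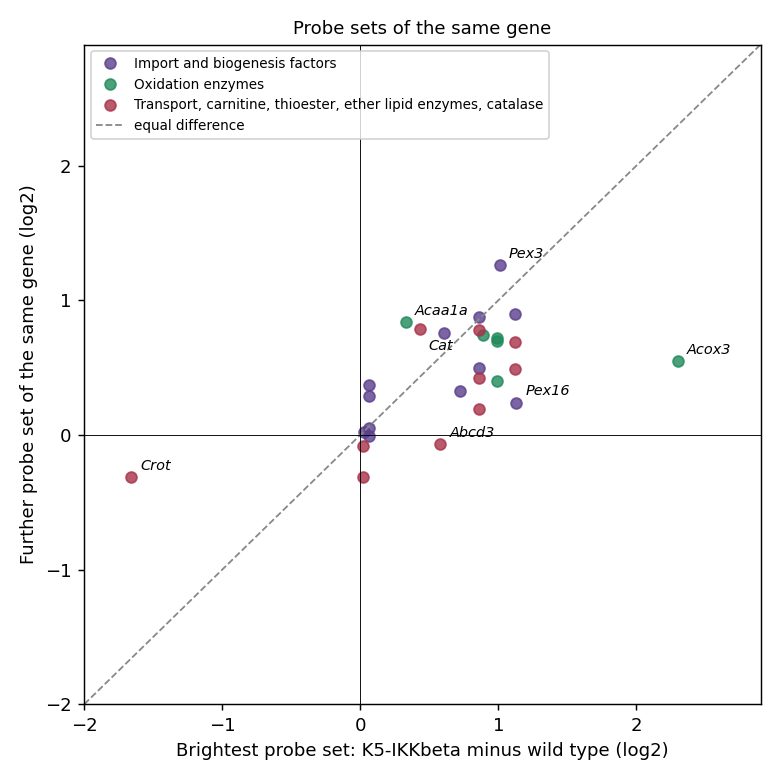
Difference K5-IKKbeta minus wild type (log2) of the brightest probe set of a gene (horizontal axis) against that of each of its further probe sets (vertical axis), 1 point per further probe set, coloured by role. The dashed line marks equal differences; Acox3 (2.30 against 0.55) and Crot (-1.66 against -0.31) lie farthest from it.

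Other genes listed with the peroxisome, from a list that does not hold the 33, were divided. The list also takes in lipid genes whose products are not confined to peroxisomes, Acsl5 and Fads2 among them. Of 34 tested 14 rose, 3 fell and 17 did not pass, with a median of 0.15 beside 0.09 for all tested genes. The largest rises were in Far2, which reduces fatty acids to the alcohols of waxes (9.45 and 9.48 against 12.48 and 12.64, a difference of 3.09, limma adjusted p = 1.9e-05), Pxmp4, a membrane protein (1.81), and Acsl5, which activates fatty acids (1.42). The falls were in Uox, urate oxidase (-2.25), Fads2, a desaturase of polyunsaturated fatty acids (-1.66), and Acot3, a thioesterase (-0.50). Uox went from 7.59 and 7.63 to 5.15 and 5.56, near the 25th percentiles of the K5-IKKbeta arrays (5.35 and 5.27). It passed the filter on dim probe sets (6.33) only through its wild type values. Acot12, among the rises, passed it only through its K5-IKKbeta values (6.19 and 6.01 against 6.68 and 6.49). Pex11g, a relative of Pex11a, rose by 0.63 and was named after its value was seen.

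Mitochondrial fatty acid oxidation, which takes over the shortened chains, moved less. Of 19 tested genes 8 rose, 1 fell and 10 did not pass, with a median of 0.29. Decr1, the mitochondrial dienoyl-CoA reductase, rose by 1.11, Acadm, a dehydrogenase of medium chains, by 0.81 and Eci1, an enoyl-CoA isomerase, by 0.68. Cpt1a, which makes the acylcarnitine that enters mitochondria, fell by 0.76 (limma adjusted p = 0.00931). The difference between this list and the peroxisomal enzymes has no test.

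PPAR receptors are lipid-sensing transcription factors with many peroxisomal genes among their known targets in liver. Of 21 tested receptors, partners and targets 8 rose, 1 fell and 12 did not pass, with a median of 0.33. Pparg, the receptor of fat and sebaceous cells, went from 8.08 and 7.67 to 9.80 and 9.65 (1.85, SE 0.15, limma adjusted p = 0.00051). Plin2, which coats lipid droplets, rose by 1.83 and Cyp4b1, a fatty acid hydroxylase, by 1.40, while Vnn1, a pantetheinase, fell by 0.41 (limma adjusted p = 0.0395). Ppara, named after its value was seen, went from 7.45 and 7.35 to 8.53 and 8.42 (1.07, SE 0.10, limma adjusted p = 0.00075). The receptor Ppard had a difference of 0.06 that did not pass (limma adjusted p = 0.703).

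Markers of several cell types moved along with the peroxisomal genes. Of 14 tested sebaceous gland markers 12 rose and 1 fell, with a median of 1.12, and the log2 of their summed linear values was 15.16 to 15.18 in wild type and 16.34 to 16.35 in K5-IKKbeta pools. The brightest were Scd1 (1.21), Mgst1 (0.52) and Krt79 (0.98), and Mc5r, a receptor of sebaceous cells, had -0.05 (limma adjusted p = 0.83), while Prdm1, a regulator of sebaceous gland cells, fell by 1.22. White adipocyte markers rose in 6 of 13 and fell in 0 by limma (1 lower at an unadjusted p under 0.05), with log2 sums of 14.78 to 14.92 against 15.08 to 15.30. The brightest of these, Fabp4, Lpl and Adipoq, had 0.03, 0.27 and 0.69, of which only Adipoq passed. Skeletal muscle markers rose in 13 of 15, with Acta1 (0.54), Myl1 (0.84) and Myh1 (0.75) the brightest and log2 sums of 16.13 to 16.17 against 16.92 to 17.10. Macrophage markers rose in 14 of 14 tested, with Lyz1 (1.42), Lyz2 (1.48) and Csf1r (1.06) the brightest and log2 sums of 13.04 to 13.11 against 14.39 to 14.45. Of the 15 with a probe set, Itgam lay below the filter on dim probe sets (6.33). Aif1 (5.39 and 5.79 against 7.25 and 7.57) passed that filter only through its K5-IKKbeta values, so this count depends in part on the filter. Dermal fibroblast markers rose in 7 of 10, with log2 sums of 16.21 to 16.33 against 16.67 to 16.85. Of 15 epidermal markers 6 rose and 5 fell, with log2 sums of 16.36 to 16.38 against 16.59 to 16.80, and the log2 sum of hair shaft markers dropped from 17.87 in both wild type pools to 12.01 to 12.51. Among the epidermal rises, Krt2 (4.35 and 5.26 against 9.49 and 9.97) also passed the filter only through its K5-IKKbeta values. In the sebaceous, adipocyte, muscle and macrophage lists no marker lay below the 25th percentile on all 4 arrays. Far2, Plin2, Pparg and Elovl3 are in a pathway list as well as the sebaceous list. The part of these cell types in the peroxisomal values was not tested.

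**Figure D4:**
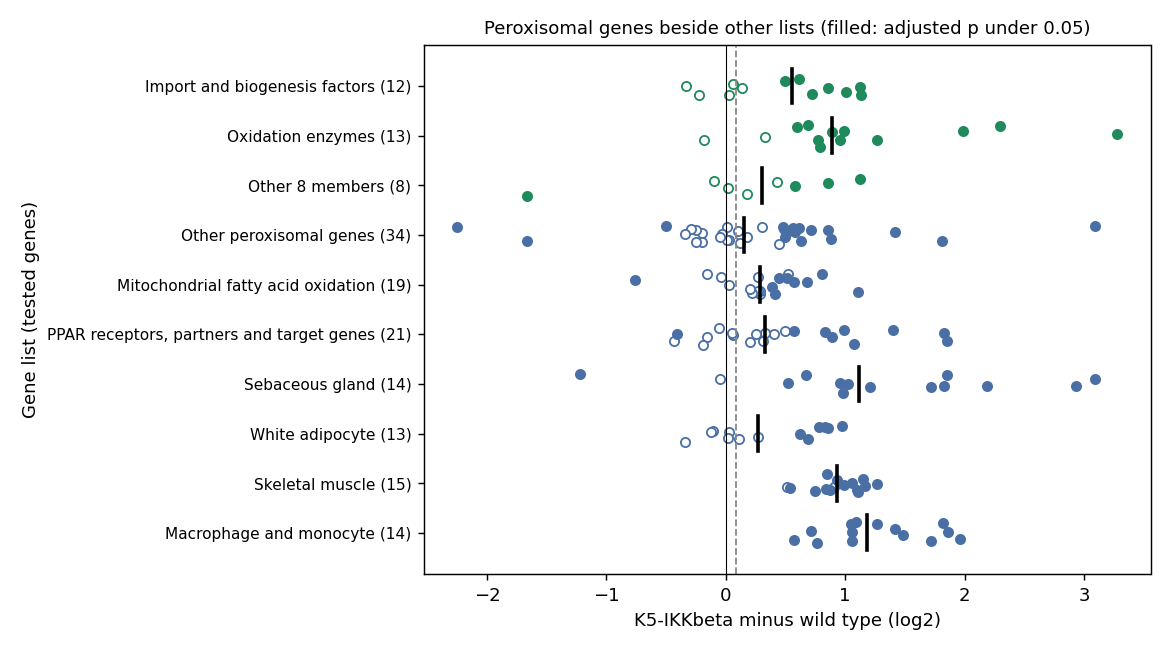
Difference K5-IKKbeta minus wild type (horizontal axis, log2) of each tested gene, in rows by list, with the number of tested genes in brackets. Filled points passed an adjusted p under 0.05, black bars are list medians, and the dashed line is the median of all tested genes (0.09). The oxidation enzymes (median 0.89) lie above the other peroxisomal genes (0.15) and below the skeletal muscle (0.93), sebaceous gland (1.12) and macrophage (1.18) markers.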

How the data were processed

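Total RNA of back skin was hybridised as biotin-labelled cRNA, per the labels' protocols. The authors deposited RMA values, per the submitters' processing notes; no log base or version is given in the sources used here, and the range of 2.65 to 14.67 is that of log2 values, so the deposited values were used as log2. RMA compresses large differences.

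Of 45101 probe sets 34958 had 1 gene symbol, 932 several and 9211 none. For each of 18194 genes the brightest single-gene probe set was taken, and 13074 genes with a mean above the 40th percentile (6.33) were tested with limma 3.58.1 in R 4.3.3 (lmFit, eBayes, two-sided, group as the only term, adjusted p threshold 0.05). The procedure was tested on simulated data. Names follow the array annotation; synonyms came from the RefSeq table of GRCm38.p6.

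Groups follow the labels. P-values measure the spread between pools of 3 mice. The number of arrays limits the precision. All 33 members were described by role, those past the threshold with each array's value; up to 3 higher and 3 lower genes per pathway list and the 3 brightest per marker list were named. Members and lists were chosen with earlier results of these data known. Alternatives covered filter, probe set choice, scaling, eBayes settings, a replicate block and leaving out each array.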

Additional observations from a re-analysis of the deposited data

How the results depend on the processing

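The count of members that rose was 20 to 22 under the settings that kept all 4 arrays, and 16 to 22 when 1 array was left out. The count of oxidation enzymes that rose ran from 10 to 12 and from 9 to 12 in the same way, and that of biogenesis factors from 7 to 8 and from 5 to 7. The count of members that fell was 1, and 2 after another quantile normalization without hair genes and with the replicate block, with Pex26 as the addition and 1 biogenesis factor lower in place of 0; leaving out 1 array gave 1 to 2 members and 0 to 1 factors. The count among the other 8 genes ran from 2 to 5 when 1 array was left out, and the difference of group medians from -0.42 to -0.25, with a spread of 0.08 between arrays. Over all genes these fits gave 1570 to 3096 higher and 669 to 1544 lower. With a lone array in a group, its spread was taken as that of the other group.

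The sign turned only for members near zero. Pex2 (0.03) gave -0.04 after another quantile normalization, -0.01 with each array centred and -0.05 after a quantile normalization without hair genes, Pex6 (0.06) gave -0.02 and -0.03 under the first and last of these, and Agps (0.02) gave -0.07, -0.02 and -0.08 under all of them and -0.12 with the mean of probe sets. Leaving out 1 array moved these genes from -0.02 to 0.08, from -0.05 to 0.17 and from -0.09 to 0.14. Of all called genes 68.9% were higher, 63.9% with each array centred, 59.2% after another quantile normalization and 57.9% after one without hair genes. The cause was not tested.

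Samples of the 2 groups share replicate numbers, which nothing in the labels says pair them; deviations of equal numbers from their group means correlated at 0.25 across genes. With the replicate block, 22 members passed as higher, and Acaa1a and Pex26 were the added calls among members. Acaa1a had no value with probe sets of shared sequence left out, and Ehhadh none with the filter at the 60th percentile.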

Other observations

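Genes of very long chain lipids, which supply substrates of peroxisomal oxidation, and of ether lipids had higher values in the transgenic pools. Of 17 tested genes of this list 13 rose, 1 fell and 3 did not pass limma's threshold, with a median of 0.62. The elongases Elovl6, Elovl4 and Elovl5, which lengthen saturated, very long and polyunsaturated chains, rose by 1.98 (limma adjusted p = 0.00014), 1.56 (limma adjusted p = 0.00037) and 1.48 (limma adjusted p = 0.00018). Acsl3, which activates fatty acids for storage in lipid droplets, averaged 9.97 in wild type (SD 0.04, n = 2) and 8.72 in K5-IKKbeta skin (SD 0.09, n = 2) and fell by 1.25 (limma adjusted p = 0.00044). Elovl3 is also among the sebaceous gland markers.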
